A study of Mus musculus with 3 samples.

Results

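The genes described here are 8 regulators of pyrophosphate and phosphate, Enpp1, Ank, Alpl, Phospho1, Phex, Smpd3, Slc20a1 and Slc20a2, chosen by name. All 8 were found by symbol in each library and joined by identifier, among 21446 gene identifiers that the 3 libraries shared. The label reads PTHrP-mCherry+ cells of molars, and the cells came from mandibular molars of mice that carry the Pthrp-mCherry knock-in reporter, which marks cells that express parathyroid hormone-related protein. Reporter-positive cells from pooled animals were sorted at postnatal day 15 (P15), P25 and 8 weeks and sequenced with a droplet kit that reads the 3' ends of transcripts. Every library therefore carried the reporter allele and the same sort, there was no reporter-negative group, and each time point was a single library, so no difference between time points could be tested. The labels call the sorted cells cementoblasts, which lay down cementum on the tooth root, and their precursors.

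Pyrophosphate blocks the growth of hydroxyapatite crystals, so mineral forms where pyrophosphate is removed and phosphate is supplied. ENPP1 makes extracellular pyrophosphate from nucleotides, and ANK supplies it from inside the cell. Tissue-nonspecific alkaline phosphatase, the product of Alpl, cleaves pyrophosphate, and PHOSPHO1 frees phosphate from phospholipid breakdown products inside matrix vesicles. Phospho1 is counted below with Alpl as a remover, although that reaction supplies phosphate and does not cleave pyrophosphate. SMPD3 is a neutral sphingomyelinase that feeds the same vesicle pathway, PHEX is a peptidase of bone and tooth mineral that lowers the phosphate hormone FGF23, and SLC20A1 and SLC20A2 import phosphate. Cementum is known for its sensitivity to this balance: mice that lack Enpp1 or Ank form thick cementum, and loss of Alpl impairs acellular cementum.

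Cells were grouped in the data by the unique molecular identifiers (UMIs) of 6 gate genes, none of them a member. A cell needed at least 2 UMIs of the gate gene and, per 10000 UMIs of the cell, at least 1 for Ptprc, 5 for Rgs5, 2 for Ifitm5, 10 for Ibsp, 1 for Pappa2 and 1 for Hand2. Each cell took the gate it passed that came earliest in that order, and 416, 613 and 252 cells of the P15, P25 and 8-week libraries passed both the Ifitm5 and the Ibsp gate. Ibsp-gated cells numbered 1687, 1919 and 1564 at P15, P25 and 8 weeks, Ifitm5-gated cells 596, 812 and 284, and Hand2-gated cells 221, 296 and 168. Hand2 came last in the order, so its gate holds what remained of 287, 1117 and 824 cells past its threshold. Pappa2-gated cells numbered 560, 35 and 18, Rgs5-gated cells 245, 24 and 53, and Ptprc-gated cells 808, 213 and 18. The remaining 8809, 5672 and 3087 cells passed no gate. Counts were summed over the cells of a gate in a library where there were at least 20, which left out the Pappa2 and Ptprc gates at 8 weeks. Sums are given as CPM, the UMIs of a gene per 1000000 UMIs of the sum, and intervals beside single values (exact Poisson for levels and ratios, exact binomial for shares) cover counting error only. Tests between gates compared sums over libraries with edgeR's quasi-likelihood test, and a gene was called at a Benjamini-Hochberg adjusted p under 0.05 over all genes tested. Fold changes are on the log2 scale. The standard error (SE) of an edgeR value was derived from its test, as the absolute change divided by the square root of the F value. The same pooled animals gave all gates of a library, and libraries of different age stood in for replicates.

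The markers set limits on what a gate holds. Ibsp-gated cells carried the cementoblast markers Dmp1 (123, 74.2 and 104 CPM at P15, P25 and 8 weeks) and Bglap (1838, 868 and 1911 CPM). Ifitm5-gated cells held more of both, with 339, 481 and 562 CPM of Dmp1. Of the osteocyte markers, Sost and Mepe were at or below 1.33 CPM in all gates. Phex, a member that is also on that marker list, stood at 32.0, 27.3 and 51.0 CPM in Ifitm5-gated cells. Low Sost and Mepe alone do not show that no gate held osteocyte-like cells. Ptprc-gated cells held the immune genes Tyrobp and Lyz2 but also 605 CPM of Ibsp at P15 and 1249 CPM at P25. The part of RNA from other cells in such values was not tested. Rgs5-gated cells at P15 held 510 CPM of the mural marker Notch3, but at 8 weeks 7.20 CPM, with 7139 CPM of Ibsp, and the gate at P25 and 8 weeks is therefore called by its gene only. Total UMIs ranged from 46234378 to 188157997 per library and median UMIs per cell from 8712.5 to 15834. Pairs of libraries shared between 13 and 26 cell barcodes.

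Enpp1 (ENSMUSG00000037370) lies on chromosome 10 of GRCm38 from 24637914 to 24712159 on the minus strand, and Ank (ENSMUSG00000022265) on chromosome 15 from 27466677 to 27594909 on the plus strand. Alpl (ENSMUSG00000028766) lies on chromosome 4 from 137741733 to 137796384 on the minus strand, and Phospho1 (ENSMUSG00000050860) on chromosome 11 from 95824499 to 95832140 on the plus strand. Ank shares stretches of its strand with Tiaf2 and Phospho1 with Zfp652, so reads in those stretches could be split. The promoters of these 4 genes are shown because the genes are counted on opposite sides of the ratio that the results turn on. They are the 250 bases before the RefSeq start on GRCm38.p6, at chr10:24712160-24712409 (minus strand) for Enpp1, chr15:27466427-27466676 (plus strand) for Ank, chr4:137796385-137796634 (minus strand) for the upstream start of Alpl and chr11:95824250-95824499 (plus strand) for Phospho1. Capitals mark matches on either strand to CTTTGA, the core of the TCF/LEF motif, and to TGTGGT, the core of the RUNX motif.
Enpp1: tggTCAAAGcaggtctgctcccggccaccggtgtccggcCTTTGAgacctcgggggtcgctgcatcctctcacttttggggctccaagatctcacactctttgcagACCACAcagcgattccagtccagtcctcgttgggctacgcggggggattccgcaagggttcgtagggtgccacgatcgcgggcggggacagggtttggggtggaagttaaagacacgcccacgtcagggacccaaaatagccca
Ank: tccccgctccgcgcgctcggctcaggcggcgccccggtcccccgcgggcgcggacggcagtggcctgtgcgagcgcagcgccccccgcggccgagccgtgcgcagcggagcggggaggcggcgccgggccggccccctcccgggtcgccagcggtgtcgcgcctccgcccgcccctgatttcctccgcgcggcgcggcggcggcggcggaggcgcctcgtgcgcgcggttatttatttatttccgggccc
Alpl: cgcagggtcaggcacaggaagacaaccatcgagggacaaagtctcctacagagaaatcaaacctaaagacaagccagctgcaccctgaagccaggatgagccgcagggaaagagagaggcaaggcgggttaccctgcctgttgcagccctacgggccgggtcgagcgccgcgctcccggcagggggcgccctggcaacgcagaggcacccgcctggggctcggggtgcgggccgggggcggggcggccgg
Phospho1: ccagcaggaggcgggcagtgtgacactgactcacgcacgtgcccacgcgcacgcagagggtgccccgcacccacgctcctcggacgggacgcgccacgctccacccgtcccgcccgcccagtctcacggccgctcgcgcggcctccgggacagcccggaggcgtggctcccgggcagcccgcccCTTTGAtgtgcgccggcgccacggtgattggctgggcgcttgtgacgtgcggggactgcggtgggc
The Enpp1 promoter held 2 TCF/LEF matches, 247 and 211 bases before the start, and 1 RUNX match 144 bases before it. Phospho1 held 1 TCF/LEF match 66 bases before its start, and these windows of Ank and of both Alpl starts held neither set of letters. Of 32851 promoters of the same length, 4544 (13.8%) held the TCF/LEF letters and 4614 the RUNX letters. The G and C content was 61.2% for Enpp1, 81.2% for Ank, 68.4% for Alpl and 75.6% for Phospho1. A match is a description of the letters and not a site of binding.

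Both makers of pyrophosphate were higher in Ibsp-gated and in Ifitm5-gated cells than in Hand2-gated cells, which by the order of gates passed no earlier gate. Enpp1 stood at 148, 119 and 169 CPM in Ibsp-gated cells at P15, P25 and 8 weeks and at 199, 69.4 and 136 CPM in Ifitm5-gated cells. In Hand2-gated cells it held 5.96, 9.14 and 8.47 CPM in the same order. The Ibsp and Ifitm5 gates overlapped in Enpp1, and every library of both lay above every Hand2 library. Hand2 encodes a transcription factor of the jaw mesenchyme, and its gate also held the periapical markers Nts and Tnn.

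**Figure D1:**
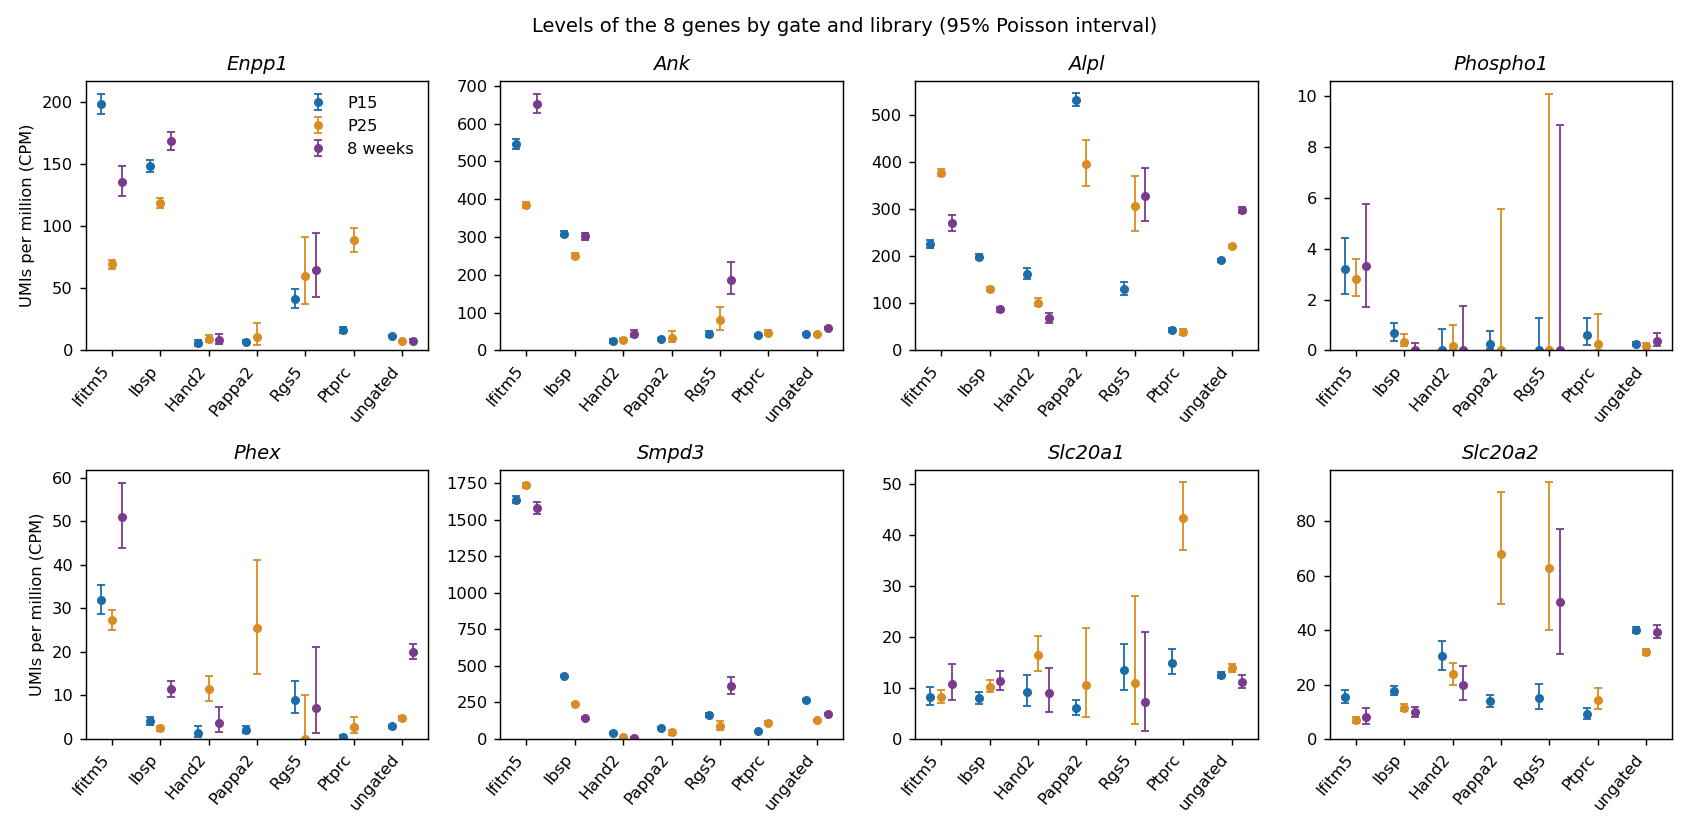
Level of each of the 8 genes (vertical axes, CPM from 0) in the sums of 6 gates and of cells in no gate (horizontal axes), with a point for each library (P15, P25, 8 weeks) and bars for 95% Poisson intervals; sums under 20 cells are not drawn. Enpp1 and Ank were high in Ifitm5-gated and Ibsp-gated cells and Smpd3 in Ifitm5-gated cells, whereas Alpl stood highest in Pappa2-gated cells at P15 (532 CPM).

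Against Hand2-gated cells, Enpp1 was higher in Ibsp-gated cells by 4.25 on the log2 scale (SE 0.22, n = 3 libraries a gate, edgeR adjusted p = 0.000792). The ratio was 24.9-fold at P15, 12.99-fold at P25 and 19.9-fold at 8 weeks. Without the 8-week library the change was 4.19 (edgeR adjusted p = 0.0917). Ank, the pyrophosphate exporter, was higher by 3.24 (SE 0.23, edgeR adjusted p = 0.00276), with 309, 251 and 302 CPM in Ibsp-gated cells and 24.1, 28.1 and 43.8 CPM in Hand2-gated cells. Its edgeR call was lost without the P25 library (3.25, adjusted p = 0.166) or the 8-week library (3.48, adjusted p = 0.0917). These were 2 of the 7 members tested in this comparison, both higher, where 1.08% of 12086 genes were called higher and 0.728% lower. With the library as a block, 4 members were higher (Enpp1, Ank, Alpl and Smpd3), 1 was lower (Slc20a2), and 952 genes in all were called, against 219 without it. Against Hand2-gated cells, the blocked fit called 2644 genes in Ifitm5-gated cells, against 1681.

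Between Ifitm5-gated and Ibsp-gated cells the makers gave different results. Ank held 546, 384 and 653 CPM in Ifitm5-gated cells, above the Ibsp gate in each library. It was lower in Ibsp-gated cells by edgeR (-1.06, SE 0.18, adjusted p = 0.034), and lost the call without P15 (adjusted p = 0.0698), P25 (0.314) or 8 weeks (0.203). For Enpp1 the edgeR difference was -0.05 (SE 0.30, adjusted p = 0.964). Enpp1 was 0.746 times the Ifitm5 level in Ibsp-gated cells at P15 (interval 0.708 to 0.787), 1.71 times at P25 (1.61 to 1.82) and 1.24 times at 8 weeks (1.13 to 1.37).

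The Enpp1 result between these gates depended on the cells that carry both Ibsp and Ifitm5. When cells passing both were put in the Ibsp gate instead, Enpp1 was higher in Ibsp-gated cells by 1.64 (edgeR adjusted p = 0.0345), and Ank differed by -0.23 (adjusted p = 0.537). With cells of several gates left out, the edgeR values were 1.54 (adjusted p = 0.0243) for Enpp1 and -0.51 (adjusted p = 0.175) for Ank.

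Alpl, which removes pyrophosphate, followed another order. It was highest in Pappa2-gated cells at P15, with 532 CPM, and stood at 395 CPM there at P25 (interval 348 to 446), not separable from Ifitm5-gated cells. Pappa2 encodes a protease of IGF-binding proteins. Ifitm5-gated cells held 226, 377 and 269 CPM at P15, P25 and 8 weeks, Ibsp-gated cells 199, 131 and 86.8 CPM, and Hand2-gated cells 162, 101 and 67.8 CPM. Within each library, the order ran from Ifitm5 to Ibsp to Hand2. Cells in no gate held 191, 220 and 298 CPM, and carried 61.2%, 62.8% and 76.3% of all Alpl UMIs, beside 65.9%, 62.0% and 57.7% of all UMIs.

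Alpl was higher in Ifitm5-gated than in Hand2-gated cells by 1.66 (SE 0.38, edgeR adjusted p = 0.0307), and lost the call without P25 (1.30, adjusted p = 0.229) or 8 weeks (1.48, adjusted p = 0.141). Between Ibsp-gated and Ifitm5-gated cells its change of -1.30 (SE 0.38) did not pass (edgeR adjusted p = 0.132). The DESeq2 Wald test called 5 members lower in this comparison, where edgeR called 2, and 639 of 12566 genes lower, where edgeR called 217. The ratio of these gates was 0.881, 0.347 and 0.322 in the P15, P25 and 8-week libraries. Between Ibsp-gated and Hand2-gated cells Alpl differed by 0.38 (SE 0.41, edgeR adjusted p = 0.772), but with the library as a block it was higher by 0.40 (SE 0.08, adjusted p = 0.0387). Each library held 1.22 to 1.29 times as much Alpl in the Ibsp gate as in the Hand2 gate.

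Between Pappa2-gated and Hand2-gated cells none of the 7 members tested passed edgeR, and 1 (Alpl) had an unadjusted p under 0.05. In this comparison 0.0258% of 11622 genes were called higher and 0.0% lower (812 at an unadjusted p under 0.05, and 120 called by DESeq2 in either direction). The edgeR value for Alpl was 2.11 (SE 0.38, adjusted p = 0.218), and the blocked fit called it (1.85, adjusted p = 0.00829), as did DESeq2 (2.11, adjusted p = 5.67e-05). The fits without a block also took in the 8-week Hand2 sum (67.8 CPM of Alpl), which had no Pappa2 sum beside it. Within P15 and P25 the log2 ratio was 1.71 and 1.96. Enpp1 and Ank differed between these gates by 0.09 (SE 0.38) and 0.02 (SE 0.29). Enpp1 stood at 7.02 and 10.5 CPM in Pappa2-gated cells at P15 and P25. The P25 sum rests on 35 cells, and without the P15 or P25 library the edgeR adjusted p of Alpl was 0.0504 or 0.545.

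Phospho1 was sparse, with 90, 91 and 22 UMIs in the whole P15, P25 and 8-week libraries. Ifitm5-gated cells, 4.61%, 9.05% and 5.47% of the cells, held 36, 60 and 12 of them. These are 3.18, 2.80 and 3.31 CPM, against 0.668 and 0.34 CPM in Ibsp-gated cells at P15 and P25 and no UMI at 8 weeks. Over the libraries, the Ifitm5 sums held 7.57 times the Phospho1 of the Ibsp sums (counting interval 4.89 to 12.1). Hand2-gated cells held 1 UMI in all, and the ratio to them was 36.1 (interval 6.35 to 1440).

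Among the 8 members, 6 were higher in Ifitm5-gated than in Hand2-gated cells and 0 lower, where 7.29% of 11328 genes were called higher and 7.55% lower. Besides Alpl they were Enpp1 (4.30, edgeR adjusted p = 0.000958), Ank (4.30, adjusted p = 0.00034), Phospho1 (adjusted p = 0.00385), Phex (2.84, adjusted p = 0.0355) and Smpd3 (6.50, adjusted p = 0.00138). Phospho1 lost the edgeR call without P25 (adjusted p = 0.0729) or 8 weeks (0.0603), and Phex without P15 (0.0586) or 8 weeks (0.201). Slc20a2 differed by -1.06 (SE 0.30, edgeR adjusted p = 0.0514), and DESeq2 and the blocked fit called it (adjusted p = 0.0186 and 0.00985). Slc20a1 differed by -0.15 (SE 0.31). Against Ifitm5-gated cells, Ibsp-gated cells had 2 members lower (Ank and Smpd3) and 0 higher, where 1.73% of 12566 genes were called lower and 1.11% higher. With the library as a block in edgeR, Phospho1 (-3.27, adjusted p = 0.0432) and Phex (-3.05, adjusted p = 0.00923) were lower too, and 1283 genes in all were called, against 356. On the scale of total counts the median of all genes stood 0.20 higher in Ibsp-gated than in Ifitm5-gated cells and 0.23 lower in Ifitm5-gated than in Hand2-gated cells, and the edgeR values are relative to that shift.

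**Figure D2:**
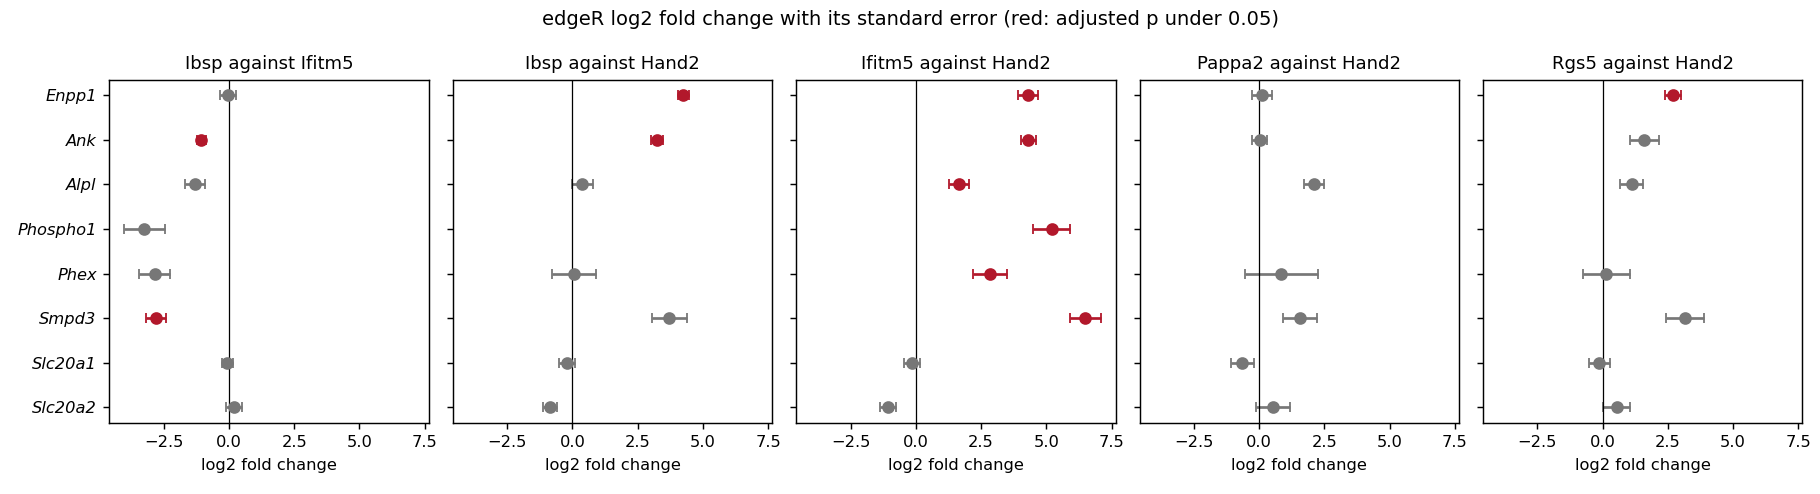
The edgeR log2 fold change (horizontal axes) of each gene (vertical axis) in 5 comparisons between gates, with bars for its standard error and red points for an adjusted p under 0.05; Phospho1 passed the low-count filter in 2 of the comparisons. The 6 red points of Ifitm5 against Hand2 lie to the right of 0, and the 2 of Ibsp against Ifitm5 to the left.

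Summed, the makers outnumbered the removers in Ibsp-gated, Ifitm5-gated and Ptprc-gated cells and not in the other gates. The log2 ratio of Enpp1 and Ank UMIs to Alpl and Phospho1 UMIs was 1.20, 1.49 and 2.44 in Ibsp-gated cells at P15, P25 and 8 weeks, so makers were 69.6%, 73.8% and 84.4% of these UMIs. In Ifitm5-gated cells the ratio was 1.70, 0.26 and 1.53, and the P25 value was lowest. Hand2-gated cells gave -2.44, -1.45 and -0.38, and Pappa2-gated cells -3.86 and -3.18 at P15 and P25. Ptprc-gated cells gave 0.35 and 1.79 at P15 and P25, within the range of the Ibsp and Ifitm5 values. Ibsp UMIs were also present in the Ptprc gate, and the part of RNA from other cells in its ratio was not tested. Means over the libraries were 1.71 ± 0.65 (SD, n = 3) for the Ibsp gate, 1.16 ± 0.79 (SD, n = 3) for Ifitm5, -1.42 ± 1.03 (SD, n = 3) for Hand2 and -0.71 ± 0.39 (SD, n = 3) for Rgs5. Each Ibsp and Ifitm5 value lay above each Hand2, Pappa2 and Rgs5 value, while the Ibsp and Ifitm5 values overlapped. These SDs span libraries of different age, and no test was made of the ratio.

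**Figure D3:**
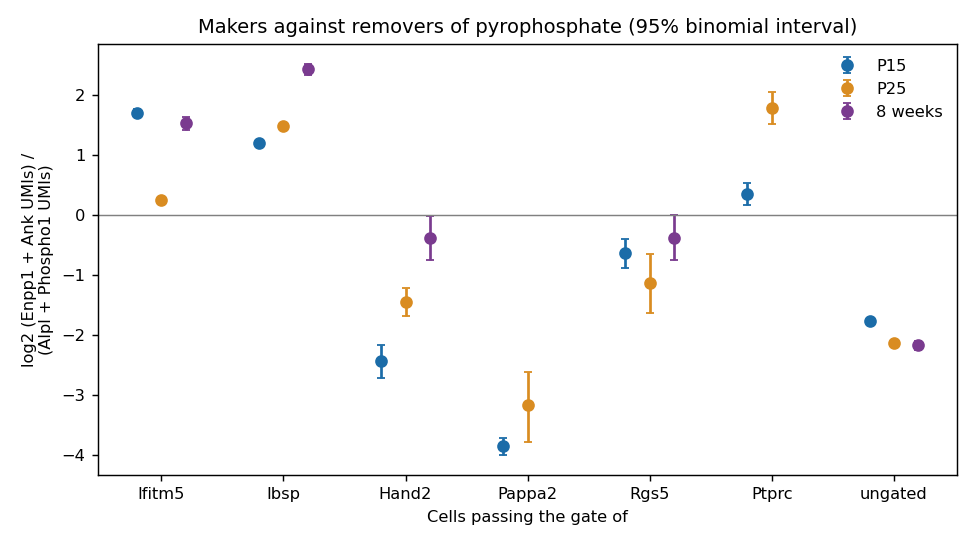
The log2 ratio of maker UMIs (Enpp1 and Ank) to remover UMIs (Alpl and Phospho1) on the vertical axis for each gate on the horizontal axis, with a point for each library and bars for 95% binomial intervals; the grey line marks equal counts. Ibsp-gated cells lie above 0 in every library (1.20 to 2.44) and cells in no gate below it (-2.17 to -1.76).

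Since Alpl made up 99.1% of the remover UMIs in the Ifitm5 gate and 99.7% in the Ibsp gate, the ratio is in effect that of Enpp1 and Ank to Alpl. With Enpp1 alone against Alpl alone the mean was 0.13 in Ibsp-gated cells and -1.20 in Ifitm5-gated cells. Enpp1 had fewer UMIs than Alpl in the Ifitm5 gate of every library, and in the Ibsp gate at P15 (3552 against 4759) and P25 (3489 against 3845) but not at 8 weeks (2192 against 1127). The sign of the balance therefore depended on Ank in all these sums except the Ibsp gate at 8 weeks. The counts are numbers of transcript ends and not of enzyme activity. A value of 0 does not mark equal making and removing of pyrophosphate.

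Ibsp-gated cells were not uniform. They were divided at 30, 100 and 300 Ibsp UMIs per 10000, a division made after the values were seen and given with no test. From the lowest to the highest bin, Enpp1 went from 27.2 through 68.8 and 224 to 339 CPM at P15, from 7.73 to 335 CPM at P25 and from 12.9 to 455 CPM at 8 weeks. Ank went from 88.0 to 649 CPM, from 92.0 to 587 CPM and from 111 to 634 CPM. Alpl had the opposite order, from 302 to 58.7 CPM at P15, from 203 to 24.9 CPM at P25 and from 129 to 26.3 CPM at 8 weeks. The balance went from below 0 to above it in every library, from -1.39 to 4.07 at P15, from -1.03 to 5.19 at P25 and from -0.06 to 5.37 at 8 weeks. Median UMIs per cell ranged from 12253.5 to 15021 over the bins at P15, and from 7648.5 to 8766 at 8 weeks.

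Ifitm5-gated cells, divided at 5, 10 and 20 Ifitm5 UMIs per 10000 in the same way, showed another pattern. Smpd3 stood at 1177, 1443, 2331 and 2825 CPM from the lowest to the highest bin at P15, and Alpl at 161, 210, 300.3 and 415 CPM. Enpp1 was lowest in the highest bin in each library, with 106, 31.8 and 54.1 CPM against 216, 76.6 and 159 CPM in the lowest. Ank stood at 353 to 405 CPM over the 4 bins at P25. The highest bin held 46, 71 and 29 cells.

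**Figure D4:**
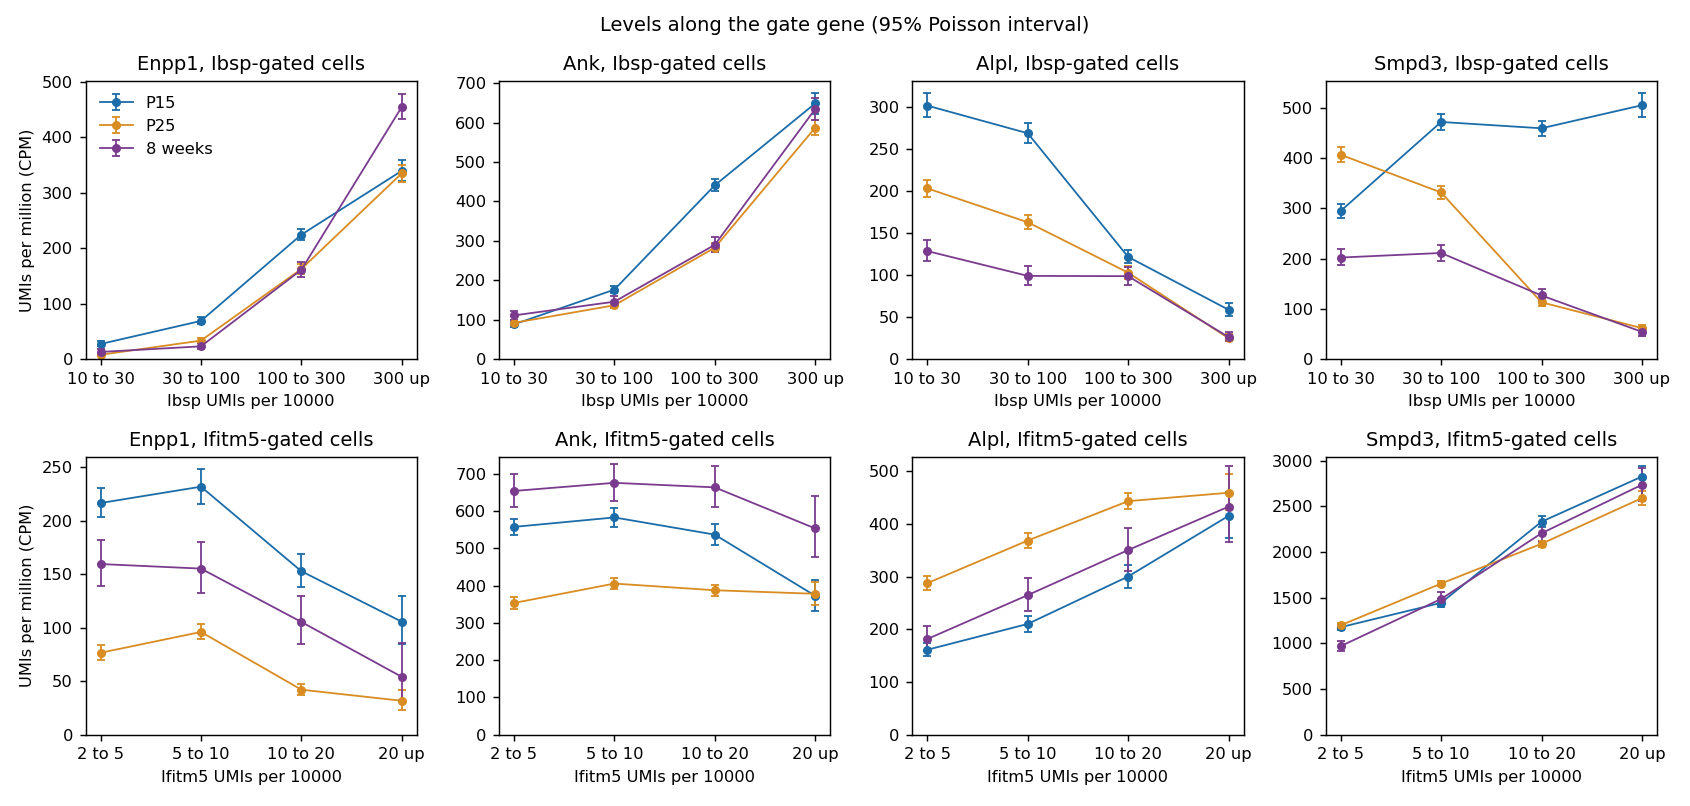
CPM of Enpp1, Ank, Alpl and Smpd3 (vertical axes, from 0) in 4 bins of Ibsp UMIs per 10000 in Ibsp-gated cells (top row) and of Ifitm5 UMIs per 10000 in Ifitm5-gated cells (bottom row), with a line for each library and bars for 95% Poisson intervals. Enpp1 and Ank were highest in the highest Ibsp bin in all 3 libraries, whereas Alpl was lowest there (58.7, 24.9 and 26.3 CPM).

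Of the Ibsp-gated cells, 41, 804 and 650 in the P15, P25 and 8-week libraries also passed the Hand2 gate, and they held little Alpl. In these cells it stood at 46.7, 27.7 and 23.4 CPM, against 204, 260 and 227 CPM in Ibsp-gated cells with no Hand2 UMI. Smpd3 held 24.7, 29.4 and 14.7 CPM against 448, 543 and 418 CPM. Enpp1, in contrast, was no lower with Hand2 (188, 128 and 175 CPM) than without it (149, 105 and 159 CPM), and makers were 90.8%, 93.1% and 95.1% of the 4 genes' UMIs in the cells with Hand2. The lower level of Alpl at 8 weeks than at P15 in Ibsp-gated cells as a whole (86.8 against 199 CPM) was not present in the cells without Hand2. A missing Hand2 UMI depends on depth, and median UMIs per cell were 14253.5 in the P15 and 8712.5 in the 8-week library. The part of depth in this was not tested. In the highest Ibsp bin alone, Alpl was 7.40 and 13.3 CPM with Hand2 at P25 and 8 weeks (207 and 204 cells) and 58.3 and 57.6 CPM without it. The division was made after the values were seen and has no test.

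**Figure D5:**
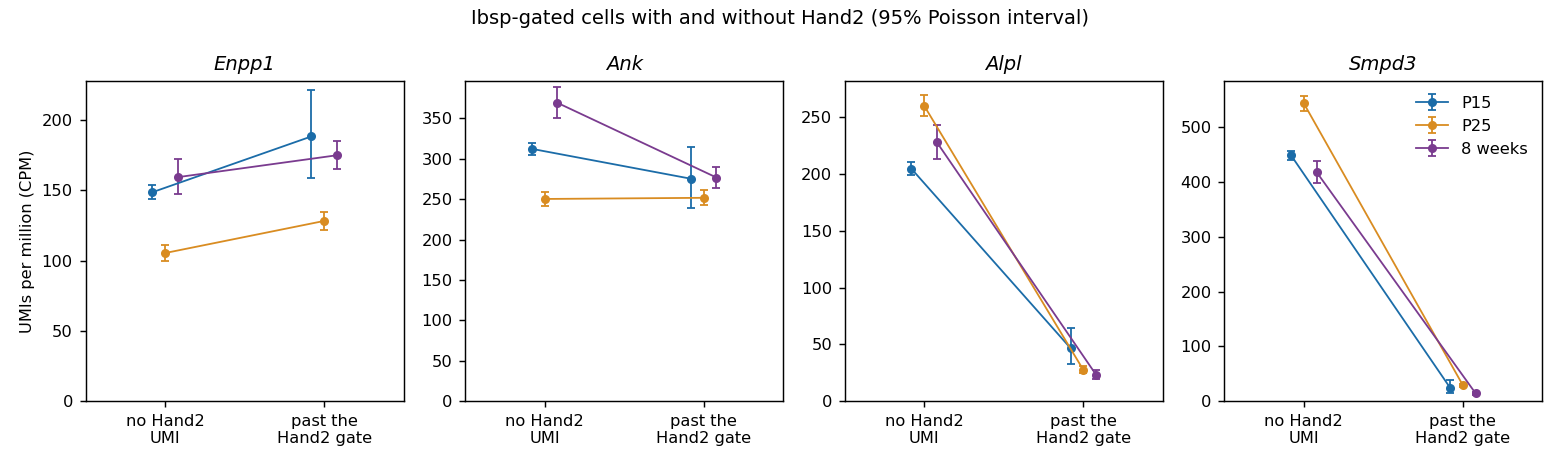
CPM of Enpp1, Ank, Alpl and Smpd3 (vertical axes, from 0) in Ibsp-gated cells with no Hand2 UMI and in those that also passed the Hand2 gate (horizontal axes), with a line for each library and bars for 95% Poisson intervals. Alpl lies between 204 and 260 CPM without Hand2 and between 23.4 and 46.7 CPM with it, and Enpp1 does not show this drop.

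Detection of makers and Alpl was also counted cell by cell. After each cell was thinned to 3000 UMIs, 37.1%, 41.8% and 45.4% of Ibsp-gated cells at P15, P25 and 8 weeks had a UMI of Enpp1 or Ank and none of Alpl. A further 10.7%, 5.59% and 5.37% had both, and 22.8%, 11.3% and 7.38% had Alpl without a maker. In Ifitm5-gated cells 19.7%, 34.5% and 32.6% had both. These joint shares move with how often each gene was detected, and were not tested against it. In the Pappa2 gate, Alpl without a maker made up 68.6% of the cells at P15. A missing UMI at this depth does not show that a cell lacks the transcript, and 5.50% of Ptprc-gated cells at P15 still had an Ank UMI at this depth (20.3% before thinning).

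The share of cells with a UMI followed the levels. At 3000 UMIs a cell, Enpp1 was detected in 25.2%, 22.6% and 25.8% of Ibsp-gated cells and in 2.29%, 3.39% and 0.599% of Hand2-gated cells. In Ptprc-gated cells, chosen as the background, it was detected in 4.42% at P15 and 14.2% at P25. Whether those cells make Enpp1 themselves was not tested, so these shares cannot be read as a background for it. Ank was detected in 67.7%, 61.4% and 77.3% of Ifitm5-gated cells and in 41.7%, 41.04% and 44.1% of Ibsp-gated cells. Alpl was detected in 33.5%, 16.9% and 12.8% of Ibsp-gated cells. Thinning left out 268, 94 and 317 Ibsp-gated cells.

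Smpd3 (ENSMUSG00000031906, chromosome 8, 106252548 to 106337988, minus strand), the sphingomyelinase, was highest in Ifitm5-gated cells. It held 1635, 1736 and 1576 CPM there, against 430, 242 and 147 CPM in Ibsp-gated cells and 41.0, 12.8 and 10.4 CPM in Hand2-gated cells. Cells in no gate held 269, 127 and 173 CPM and Rgs5-gated cells 163, 87.6 and 362 CPM. The Ibsp gate thus lay above both at P15 and P25 and below both at 8 weeks. The Ifitm5 values varied little between libraries and did not overlap with those of any other gate. Smpd3 was lower in Ibsp-gated than in Ifitm5-gated cells by edgeR (-2.80, SE 0.40, adjusted p = 0.026), and the call was lost without P25 (-2.63, adjusted p = 0.376) or 8 weeks (-2.53, adjusted p = 0.143). Ibsp-gated cells held more than Hand2-gated cells (3.70, SE 0.67) with an edgeR adjusted p of 0.0577. The blocked edgeR fit called this difference (3.85, adjusted p = 0.00134).

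Phex (ENSMUSG00000057457, chromosome X, 157162075 to 157415312, minus strand) was detected in few cells. It held 32.0, 27.3 and 51.0 CPM in Ifitm5-gated cells against 4.09, 2.45 and 11.4 CPM in Ibsp-gated cells, and the edgeR change of -2.85 (SE 0.59) had an adjusted p of 0.0651. The Ifitm5 gate held 362, 585 and 185 Phex UMIs. Cells with at least 5 Phex UMIs and at least 2 Ifitm5 UMIs, not all of them in that gate, numbered 24, 36 and 11 and held 405, 770 and 178. The Phex level of the Ifitm5 gate can therefore rest on few cells. The 1% of cells with most Phex UMIs held 88.3%, 94.96% and 72.7% of its UMIs at P15, P25 and 8 weeks. A Phex UMI was seen in 1.80%, 1.69% and 3.52% of cells, and the part of this rarity in the share was not tested. Cells with at least 5 Phex UMIs numbered 45, 47 and 56, and their other genes are given as a description, since Phex chose them. At P15 and P25 they held 299 and 887 CPM of Dspp, the odontoblast matrix gene, and 35824 and 62251 CPM of Bglap, but only 10 and 19 of them had a Dspp UMI. At 8 weeks they held no Dspp UMI.

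The cells with most Phex were of more than 1 kind in each library. At P15, 24 of the 45 had at least 2 Ifitm5 UMIs. Those 24 held 38865 of the 39219 Bglap UMIs of the 45, 551 of the 554 Dmp1 UMIs and 0 of the 125 Dpt UMIs. At P25, 36 of the 47 had at least 2 Ifitm5 UMIs. Those 36 held 97651 of the 107636 Bglap UMIs of the 47, 2271 of the 2350 Dmp1 UMIs and 23 of the 202 Dpt UMIs. At 8 weeks, 34 of the 56 had a UMI of Pi16, a gene of adventitial fibroblasts. These 34 held 2035 CPM of Dpt, 2145 CPM of C3 and 1488 CPM of Cd34 but 9.16 CPM of Dmp1 and 163 CPM of Bglap. Another 11 had at least 2 Ifitm5 UMIs, with 2365 CPM of Dmp1 and 64266 CPM of Bglap and no Pi16 UMI. Phex stood at 755 CPM in the former and 794 CPM in the latter. Cells with at least 5 Phex UMIs and a Pi16 UMI numbered 3 at P15 and 11 at P25. In those sums Bglap stood at 10709.5 and 49167 CPM, Dmp1 at 71.7 and 729 CPM, and Dpt at 35.9 and 513 CPM. These sums, unlike that at 8 weeks, were high in Bglap. The P15 sum held only 3 of the 125 Dpt UMIs of the cells with at least 5 Phex UMIs. It therefore does not show that cells with Phex and Dpt but little Bglap were absent at P15. The P25 sum held 199 of the 202 Dpt UMIs and can mix cells of several kinds, so it does not show their absence at P25 either. The genes Pi16, Dpt, C3 and Cd34 were chosen after their values were seen.

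Both phosphate importers were low. Slc20a1 (ENSMUSG00000027397, chromosome 2, 129198764 to 129211616, plus strand) stood between 8.02 and 11.4 CPM in the Ibsp and Ifitm5 gates over the 3 libraries. Its highest value in a sum of 20 or more cells was 43.4 CPM, in Ptprc-gated cells at P25. Slc20a2 (ENSMUSG00000037656, chromosome 8, 22476788 to 22569612, plus strand) held 17.8, 11.5 and 9.86 CPM in Ibsp-gated cells and 30.5, 23.7 and 19.8 CPM in Hand2-gated cells, while cells in no gate held 40.0, 32.1 and 39.4 CPM. Rgs5-gated cells at P25 and 8 weeks held 62.95 and 50.4 CPM, in sums of 24 and 53 cells. The difference of -0.87 (SE 0.27) between the Ibsp and Hand2 gates had an edgeR adjusted p of 0.196, and 0.0156 with the library as a block. Cells in no gate carried 82.8%, 81.1% and 82.0% of all Slc20a2 UMIs, above their 65.9%, 62.0% and 57.7% of all UMIs.

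Enpp1 was also found in 2 gates where its place is less clear. In Rgs5-gated cells it held 41.2, 60.2 and 64.8 CPM and was higher than in Hand2-gated cells by 2.69 (SE 0.31, edgeR adjusted p = 0.0121), 1 of 7 members called there, where 1.01% of 10628 genes were called higher and 0.376% lower. The edgeR call was lost without P25 (2.79, adjusted p = 0.198), without 8 weeks (2.54, adjusted p = 0.0839) and with cells of several gates left out (1.58, adjusted p = 0.235). At P15, where the gate held the mural marker Notch3, the ratio was 6.91 (interval 4.49 to 11.01). In Ptprc-gated cells Enpp1 stood at 16.1 CPM at P15 and 88.8 CPM at P25, where 52.6% of the cells had a UMI (14.2% when thinned to 3000 UMIs), and at 8 weeks the 18 cells had none. Enpp1 made 71.1 UMIs for each 1000 Ibsp UMIs in the Ptprc gate at P25 and 7.21 in the Ibsp gate. Ank (37.2 against 15.2), Alpl (31.02 against 7.95) and Smpd3 (89.6 against 14.7) also stood above the Ibsp-gate ratio there, and the part of RNA from other cells was not tested. The B cell markers Cd79a and Cd79b held 89.3 and 172 CPM in that gate.

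By time point, Alpl and Smpd3 stood lower at 8 weeks than at P15 in Ibsp-gated cells. The ratio of 8 weeks to P15 was 0.437 for Alpl (interval 0.409 to 0.466) and 0.341 for Smpd3 (0.324 to 0.358), and 0.978 for Ank and 1.14 for Enpp1. Cells also past the Hand2 gate went from 41 of 1687 at P15 to 650 of 1564 at 8 weeks. Lack of a Hand2 UMI also depends on depth. Without one, Alpl stood at 204 and 227 CPM in Ibsp-gated cells at P15 and 8 weeks, and Smpd3 at 448 and 418 CPM. In the whole gate these 2 of the 4 members at 20 CPM or more were past a 2-fold difference, where 5.27% of 6355 genes were. In Hand2-gated cells the same 2 genes were past it, Alpl at 0.417 and Smpd3 at 0.252 (with gate thresholds halved, Smpd3 turned to a log2 ratio of 0.38), where 8.96% of 6517 genes were. In Ifitm5-gated cells none of 5 members was, with 6.11% of 5957 genes. In cells of no gate 1 of 5 was, Phex, at 20.02 CPM against 2.94 CPM (a ratio of 6.82, interval 5.95 to 7.81), where 8.97% of 6624 genes were past 2-fold. In the whole 8-week library 56 cells held 74.8% of the Phex UMIs. The ratio can rest on few cells, which its interval does not cover. With 1 library a time point, age and library cannot be told apart.

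The cells in no gate were also taken by single marker genes, at 5 UMIs or more per 10000, after the values were seen. A cell could be taken by several markers or by none. Alpl stood at 542, 536 and 828 CPM in those with Cpz and at 551, 474 and 489 CPM in those with Bglap. It held 409, 450.1 and 551 CPM in those with Col16a1, a precursor marker, and 357, 358 and 339 CPM in those with Ogn, a ligament precursor marker. Cells with the epithelial gene Krt14 held 46.9, 17.9 and 10.8 CPM. Enpp1 was at or below 13.3 CPM in each of these 5 sets, which may share cells. The markers Pecam1, Apod, Pcp4, Thbs4 and Mki67 were also run and are not given.

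A wider list held 24 other genes of phosphate, pyrophosphate and nucleotide handling. Over all genes tested, 1.73% were called lower in Ibsp-gated than in Ifitm5-gated cells and 1.11% higher, with a median log2 fold change of 0.01. Of the 17 list genes tested, 4 were lower and 0 higher, with a median of -0.59. These were Sgms2, a sphingomyelin synthase (-1.88, edgeR adjusted p = 0.00277), Dmp1 (-2.42, adjusted p = 0.0154) and Spp1 (-2.01, adjusted p = 0.0415), which encode acidic matrix proteins, and Fam20c, the kinase that phosphorylates such proteins (-1.48, adjusted p = 0.0499). The same 4 were higher in Ibsp-gated than in Hand2-gated cells, out of 15 tested, where 1.08% of all genes tested were. Against Hand2, 9 of 15 were higher in Ifitm5-gated cells, where 7.29% of all genes tested were. Among the 9 was Nt5e, the ectonucleotidase that turns AMP to adenosine and phosphate (2.29, edgeR adjusted p = 0.00173). In Rgs5-gated cells 1 of 14, Dmp1, was higher (4.27, edgeR adjusted p = 0.0217), where 1.01% of all genes tested were. By the order of gates, the Rgs5 gate could keep cells past the Ibsp gate and the Hand2 gate could not. At P15, P25 and 8 weeks, 21, 6 and 8 cells passed both the Rgs5 and the Ibsp gate. Their part in the Dmp1 difference was not tested. In Pappa2-gated cells 0 of 14 were called, with 1 at an unadjusted p under 0.05, where 0.0258% of all genes tested were called higher. The 7 genes that did not pass the filter on low counts in the comparison with Ifitm5 were Abcc6, Slc34a1, Slc34a2, Slc34a3, Mepe, Fgf23 and Kl.

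Over the 16 sums with at least 20 cells, the genes whose pattern was most like that of Ank were Sgms2 (Pearson r = 0.982 on log2 of CPM + 10), Spp1 (0.957) and Bmp8a (0.956), of 6243 genes compared. For Smpd3 they were Cdkn1a (0.9365), Dmp1 (0.935) and Sgms2 (0.932), and for Enpp1 Foxo3 (0.903), Specc1 (0.9005) and Raph1 (0.9005). Alpl was most like Slit3 (0.898), Cthrc1 (0.897) and Gadd45g (0.897). For the lower members they were Tmco1, Tmem110 and Fbxo28 for Phex (0.8004 to 0.8105), Cat (0.930) and Dusp3 (0.918) for Slc20a1, Alyref, Mfap4 and Gaa for Slc20a2 (0.905 to 0.944), and Nme1, Car3 and Cgref1 for Phospho1 (0.888 to 0.931), whose mean was 0.724 CPM. Between members, r was 0.876 for Enpp1 with Ank, 0.886 for Ank with Smpd3 and 0.016 for Enpp1 with Alpl. The sums share libraries and depth, so these values are a description.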

How the data were processed

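Single-cell RNA sequencing of sorted reporter-positive cells was measured in 3 libraries, 1 each at P15, P25 and 8 weeks, pooled over animals. The paper states that the study used mice of both sexes, without giving the sexes for each library. The authors deposited filtered matrices of raw UMI counts per gene and cell. The submitters' processing notes give Cell Ranger 6.1.2 for all libraries and the mm10 genome, whereas the file headers give 6.0.1 for P25. P15 and 8 weeks list 22056 features and P25 lists 32293, and the 21446 shared identifiers held 95.2% to 99.8% of the UMIs. The members and gene lists were chosen with earlier results of these data known.

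All deposited cells were kept, with no removal of doublets in the main setting. Counts were summed per library and gate (at least 20 cells) with Python 3.11.15 and numpy 2.4.6, and tested in R 4.3.3 with edgeR 4.0.16 (TMM, filterByExpr, robust quasi-likelihood fit, Benjamini-Hochberg adjustment), each comparison fitted on its own 2 gates over all genes. The scripts were tested on simulated data. A library's sums come from the same pooled animals, so library pairs the sums. Their deviations from the gate means correlated by 0.115 to 0.734 within a library.

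The rule for named genes was all 8 members, wider-list genes called between Ibsp-gated and Ifitm5-gated cells or defining a role in that list, and, for each member, the 3 genes of highest Pearson correlation among those with a mean of at least 20 CPM. Of these, 1 gene like Slc20a1 is not reported here. Nt5e was named for its role. The 2-fold rule between time points took genes at 20 CPM or more in either sum. Alternatives were DESeq2 1.42.0 (test and size factors), no filter on low counts, library as a block, all gates in 1 fit, thresholds halved or tripled, cells of several gates left out, Ibsp before Ifitm5, a cell filter (a minimum of 500 genes, a maximum of 20% mitochondrial UMIs), the 6% of cells of highest Scrublet score left out (scanpy 1.11.5), gates on thinned cells, and each library left out. Bins and other divisions of the gates were added after seeing the data. UMI counts give the precision stated beside each value.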

Additional observations from a re-analysis of the deposited data

Results flagged for a closer look

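The ratio of Enpp1 in Ibsp-gated to Ifitm5-gated cells pointed in opposite directions in different libraries. It was 0.746 at P15, below 1, but 1.71 at P25 and 1.24 at 8 weeks. With 1 library a time point, the difference was not tested.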

How the results depend on the processing

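Among recomputed fold changes of the members, 482 stayed on the same side of the threshold, 34 passed it newly, 28 lost it and 2 reversed. The 482 can include values that changed sign without passing the threshold. The reversed values were those of Enpp1 between the Ibsp and Ifitm5 gates, 1.54 with cells of several gates left out and 1.64 with Ibsp before Ifitm5. Among recomputed balances, 55 moved by less than the spread between libraries. The cause of these changes was not tested.

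With the library as a replicate block, edgeR called 1283 genes and 4 members for Ibsp against Ifitm5, 952 and 5 for Ibsp against Hand2, 2644 for Ifitm5 against Hand2, 70 and 1 for Pappa2 against Hand2 and 237 for Rgs5 against Hand2. The DESeq2 Wald test called 1136 genes and 5 members, 726 genes, 120 genes and 1 member, and 479 genes and 2 members for Ibsp against Ifitm5, Ibsp against Hand2, Pappa2 against Hand2 and Rgs5 against Hand2. With all gates in 1 fit, 206 genes and 1 member were called for Ibsp against Ifitm5, 128 genes for Ibsp against Hand2, and 479 genes and 2 members for Rgs5 against Hand2. Without a filter on low counts, 42 genes were called for Pappa2 and 222 for Rgs5 against Hand2.

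Tripled thresholds gave 681 genes and 4 members for Ibsp against Ifitm5, 63 genes for Pappa2 and 582 for Rgs5 against Hand2, and halved thresholds gave 46 genes for Rgs5. With cells of several gates left out, 972 genes were called for Ibsp against Ifitm5, 394 for Ibsp against Hand2, 21 for Pappa2, and 18 genes and 0 members for Rgs5 against Hand2 (1 member at an unadjusted p under 0.05, by edgeR). Placing Ibsp before Ifitm5 gave 612 genes for Ibsp against Ifitm5 and 457 for Ibsp against Hand2. Leaving out doublets gave 1 gene for Pappa2 and 228 for Rgs5 against Hand2. Gates on thinned cells gave 208 genes and 1 member for Pappa2 and 0 members for Rgs5 against Hand2 (4 at an unadjusted p under 0.05).

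Leaving out each library in turn gave 0 to 493 genes and 0 to 1 members for Ibsp against Ifitm5, 0 to 147 genes and 0 to 3 members for Ibsp against Hand2, 342 to 1341 genes and 3 to 6 members for Ifitm5 against Hand2, 0 to 48 genes for Pappa2, and 0 to 188 genes and 0 to 2 members for Rgs5 against Hand2. Where edgeR called 0 genes, 645 to 1639 had an unadjusted p under 0.05. Fits without a library rest on 2 sums a gate, or on 1 Pappa2 sum, which is then assumed to vary like the Hand2 sums.

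With Enpp1 alone against Alpl alone, the mean log2 balance was -1.20 in the Ifitm5 gate and -0.11 in the Ptprc gate, both reversed, 0.13 in Ibsp, -2.12 in Rgs5, -5.74 in Pappa2 and -3.75 in Hand2. The Rgs5 balance was -1.10 with halved thresholds, -1.82 with cells of several gates left out and -1.26 with gates on thinned cells, and that of Pappa2 was -4.03 with tripled thresholds and -4.05 with gates on thinned cells. The log2 ratio of 8 weeks to P15 for Smpd3 in Hand2-gated cells reversed to 0.38 with halved thresholds. Phospho1, at 22 to 91 UMIs a library, is limited by depth.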
